A study of Mus musculus with 10 samples.

Results

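A group of 10 genes that mark the early steps of the oligodendrocyte lineage was examined in whole-brain RNA of injured mouse pups. They were taken by symbol from a table of 55471 Ensembl identifiers, and 10 of 10 were found. Pdgfra, Cspg4 and Lhfpl3 mark precursor cells. Gpr17, Neu4 and Bmp4 mark precursors that are committed to differentiate, and Enpp6, Bcas1, Tns3 and Tspan2 mark newly formed oligodendrocytes. The latter 7 are called the differentiating members below.

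The libraries came from 10 wild-type Swiss Webster pups, described as neonatal day 5, which may be the age at injury or at collection, and whose brains had been injured by hypoxia-ischemia, a loss of oxygen and blood flow. Pups 1 to 5 had the injury and no treatment, and pups 6 to 10 had the injury and allopregnanolone, a neurosteroid made from progesterone and known as a positive modulator of GABA-A receptors. All 10 pups carried the injury, so each comparison is between treated and untreated injured brains, and no uninjured pup was analysed here. Each pup gave 1 library of 18656836 to 34270723 estimated counts, and treated pup 6 was the deepest. Libraries 1 to 3 carry another number at the start of their names than the other 7 libraries, with no reason given.

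Oligodendrocytes arise from precursors that divide, spread through the brain and then leave the cell cycle. A committed precursor switches off the receptor for platelet-derived growth factor, passes through a short stage with GPR17 and becomes a newly formed oligodendrocyte, which goes on to make myelin. These early stages are abundant in the rodent brain around birth, and they are known to be vulnerable to hypoxia-ischemia. In whole-brain RNA, a larger number of cells of a stage and more RNA per cell cannot be told apart.

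RefSeq promoter windows were used for 8 of the 10 members, not for Gpr17 and Bcas1. Of these 8, 4 that cover the 3 stages had a window in which the 250 bases before the transcript start hold no annotated exon. They are shown to let the regulatory sequence of a precursor gene that did not pass the test (Pdgfra) be read beside that of newly formed oligodendrocyte genes that rose (Enpp6, Tns3) and of Bmp4. All are 5′ to 3′ on the gene's strand of GRCm38.p6, and capitals mark matches to 4 motifs.
Pdgfra, chr5:75152001-75152250, plus strand: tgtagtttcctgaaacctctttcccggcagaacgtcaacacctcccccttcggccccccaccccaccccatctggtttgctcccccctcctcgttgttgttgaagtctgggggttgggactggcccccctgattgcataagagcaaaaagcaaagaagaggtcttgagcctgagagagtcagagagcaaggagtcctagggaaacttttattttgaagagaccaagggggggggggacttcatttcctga
Bmp4, chr14:46390670-46390919, minus strand: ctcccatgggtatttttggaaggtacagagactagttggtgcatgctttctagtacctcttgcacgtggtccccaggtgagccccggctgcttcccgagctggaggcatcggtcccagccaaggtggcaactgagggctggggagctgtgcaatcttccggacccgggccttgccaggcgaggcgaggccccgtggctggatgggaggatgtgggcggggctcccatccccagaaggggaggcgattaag
Enpp6, chr8:46986637-46986886, plus strand: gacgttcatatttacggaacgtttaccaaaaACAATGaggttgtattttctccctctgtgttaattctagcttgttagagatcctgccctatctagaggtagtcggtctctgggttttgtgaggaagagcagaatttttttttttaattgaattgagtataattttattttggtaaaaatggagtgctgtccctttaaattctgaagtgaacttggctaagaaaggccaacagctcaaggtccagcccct
Tns3, chr11:8664536-8664785, minus strand: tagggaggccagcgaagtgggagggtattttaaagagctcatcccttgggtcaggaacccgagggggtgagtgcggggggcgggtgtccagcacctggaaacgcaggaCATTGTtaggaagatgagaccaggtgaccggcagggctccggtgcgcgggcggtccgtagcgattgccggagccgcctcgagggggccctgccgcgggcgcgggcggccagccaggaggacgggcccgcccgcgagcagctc
The motifs were ACAAAG and ACAATG, which SOX factors such as SOX10 can bind, and the E-boxes CAGCTG and CATATG, which OLIG factors can bind, searched on both strands. Enpp6 held ACAATG, beginning 219 bases before the start. Tns3 held the same motif on the opposite strand, printed as CATTGT and beginning 142 bases before the start. In the windows of Pdgfra and Bmp4 none of the 4 strings was found. The strings do not overlap each other in these windows. Of 32851 RefSeq windows of this length, 10.7% held ACAATG and 37.3% held at least 1 of the 4 strings, so single matches are common. Of the 9 windows used for members, 5 held a match. Among those not printed, the windows of Cspg4 and Neu4, which rose, held none. Lhfpl3, which did not pass, held 2 matches to CAGCTG, and the windows of Tspan2, which rose, held matches. Whether a match goes with a change in level was not tested. The GC content was 38.4% for Enpp6, 54.4% for Pdgfra, 63.2% for Bmp4 and 69.6% for Tns3, beside a median of 52.4% over all windows.

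Of the differentiating members, 6 of 7 were higher in the treated brains and Bmp4 missed the threshold, while of the precursor members Cspg4 rose and Pdgfra and Lhfpl3 did not pass. Of the 10 members, 7 rose with allopregnanolone, none fell and 3 did not pass the test (edgeR's quasi-likelihood test, adjusted p under 0.05 over all 17101 genes tested). Over all genes tested, 6.61% rose and 4.65% fell, or 1131 genes against 795. With library totals as the only scaling the split was 783 against 1451, the median of all genes moved to -0.06, and 6 of 10 members rose. By stage, 1 of 3 precursor members, 2 of 3 committed precursor members and 4 of 4 newly formed oligodendrocyte members rose. The median log2 fold change, treated minus untreated, was 0.06, 0.50 and 0.58 for these stages and 0.00 for all genes tested. In 7 of 10 members all 5 treated libraries lay above all 5 untreated ones, and in none did they all lie below, beside 5.44% above and 4.2% below of all genes tested. With library totals as the only scaling they all lay above in 5 of 10 members, and in 622 in place of 930 of all genes tested. With a covariate for midbrain transcripts, or without the 3 libraries of the other name prefix, 1 of 10 members rose, and both fits are described at the end. All 10 members passed the filter on low counts and had at least 119 counts in every library.

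**Figure D1:**
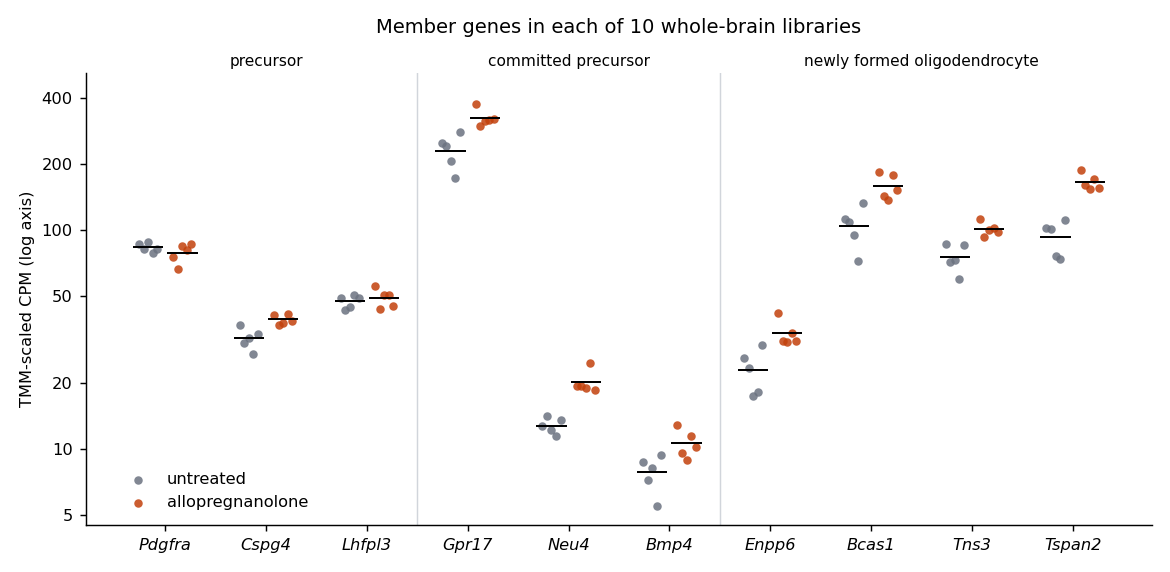
Level of each member in each library, as TMM-scaled CPM on a log axis, with untreated pups in grey, treated pups in orange and the group mean as a bar. For Pdgfra and Lhfpl3 the groups overlap, and for Cspg4, Gpr17, Neu4, Enpp6, Bcas1, Tns3 and Tspan2 every treated pup lies above every untreated one.

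The precursor genes are the receptor Pdgfra, the surface proteoglycan Cspg4 and the membrane protein Lhfpl3. Pdgfra encodes the receptor through which platelet-derived growth factor keeps precursors dividing and alive (ENSMUSG00000029231, GRCm38 chromosome 5, 75152292 to 75198215). In TMM-scaled CPM, each library's counts divided by its scaled total, it stood at 86.4, 81.5, 87.6, 78.7 and 81.7 in untreated pups 1 to 5 and at 74.8, 66, 84.0, 81.1 and 86.0 in treated pups 6 to 10. The groups overlapped, with treated pups 6 and 7 below every untreated pup. The means were 83.1 ± 3.72 and 78.4 ± 8.09 CPM (SD, n = 5 each), a log2 fold change of -0.08 (SE 0.07, adjusted p = 0.452, edgeR). The 95% interval of the fold ran from 0.853 to 1.04.

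Lhfpl3, a member of the LHFPL family of membrane proteins that is enriched in precursors (ENSMUSG00000106379, chromosome 5, 22746059 to 23275597), was at 48.9, 43.2, 44.3, 50.4 and 48.6 CPM without and at 55.5, 43.7, 50.2, 50.3 and 44.9 CPM with treatment. Treated pup 6 alone lay above the untreated range. The fold was 1.04 with a 95% interval of 0.937 to 1.16 (adjusted p = 0.642, edgeR).

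Cspg4 was the precursor member that rose. It encodes the NG2 proteoglycan, which pericytes of blood vessels also carry (ENSMUSG00000032911, chromosome 9, 56865033 to 56899870). It went from 36.6, 30.3, 32.2, 27.0 and 33.6 CPM in untreated pups 1 to 5 to 40.8, 36.7, 37.6, 41.4 and 38.5 CPM in treated pups 6 to 10. The groups were separated by a narrow gap between untreated pup 1 and treated pup 7. The means were 31.9 ± 3.59 and 39.0 ± 2.04 CPM (SD, n = 5 each), 1.22-fold higher (log2 fold change 0.29, SE 0.07, adjusted p = 0.0256, edgeR). The call did not hold without untreated pup 2 (adjusted p = 0.0529), untreated pup 3 (0.0575), untreated pup 4 (0.0578) or treated pup 9 (0.0625), nor with library totals as the only scaling (0.0631).

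Among the committed precursor genes, Gpr17 was the most abundant and Neu4 had the largest fold. Gpr17 encodes a G-protein-coupled receptor that appears transiently between precursor and myelinating cell (ENSMUSG00000052229, chromosome 18). Its level was 249, 241, 206, 173 and 278 CPM in untreated pups 1 to 5 and 375, 298, 313, 317 and 319 CPM in treated pups 6 to 10. Untreated pup 5 came nearest to the treated group, and treated pup 6 stood above the other 4 treated pups. The means of 229 ± 40.7 and 324 ± 29.4 CPM (SD, n = 5 each) gave a 1.41-fold rise (log2 fold change 0.50, SE 0.11, adjusted p = 0.0107, edgeR). Lims2, which lies opposite part of Gpr17 and shares 3.62% of its exon bases, was at 23.2 CPM untreated and 41.7 CPM treated on average, below Gpr17 in every library.

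Neu4 encodes a sialidase, an enzyme that removes sialic acid from glycoproteins and glycolipids (ENSMUSG00000034000, chromosome 1, 94020451 to 94028334). Untreated pups had 12.7, 14.1, 12.2, 11.4 and 13.5 CPM and treated pups 19.3, 19.4, 19, 24.6 and 18.5 CPM. The groups lay well apart, and treated pup 9 stood above the other treated pups. From 12.8 ± 1.06 to 20.2 ± 2.52 CPM (SD, n = 5 each), the gene rose 1.58-fold (log2 fold change 0.66, SE 0.09, adjusted p = 0.00123, edgeR).

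Bmp4 encodes a secreted bone morphogenetic protein, a family of ligands known to hold back oligodendrocyte differentiation (ENSMUSG00000021835, chromosome 14, 46383520 to 46390669). It was the member with the lowest CPM, at 8.75, 7.24, 8.16, 5.5 and 9.39 CPM without and 12.9, 9.63, 8.94, 11.4 and 10.2 CPM with treatment. Of the 5 treated pups, 4 lay above every untreated pup, and treated pup 8 lay below untreated pup 5. Its log2 fold change of 0.44 (SE 0.14) had a 95% interval of 0.14 to 0.75 and missed the threshold (adjusted p = 0.0605, edgeR). It passed in DESeq2 (adjusted p = 0.0259) and without untreated pup 5 (adjusted p = 0.0350, edgeR), and in 2 of 23 alternative analyses in all.

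The 4 genes of newly formed oligodendrocytes all rose, by 1.35-fold to 1.78-fold. Tspan2, a tetraspanin of the oligodendrocyte membrane (ENSMUSG00000027858, chromosome 3, 102734529 to 102801513), had the largest fold of the 10 members. It was at 102, 101, 75.8, 73.5 and 111 CPM in untreated pups 1 to 5 and at 187, 160.2, 154, 170.2 and 155 CPM in treated pups 6 to 10. The lowest treated pup lay far above the highest untreated one. Its means were 92.8 ± 17.1 and 165 ± 13.8 CPM (SD, n = 5 each), a log2 fold change of 0.83 (SE 0.11, adjusted p = 0.000713, edgeR). Tspan2 was also the member that passed in all 23 alternative analyses, with log2 fold changes of 0.69 to 0.94.

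Bcas1 encodes a protein that labels oligodendrocytes at the start of myelination (ENSMUSG00000013523, chromosome 2, 170346991 to 170427845). The 5 untreated values were 112, 109, 94.7, 71.8 and 132 CPM, and the 5 treated values were 183, 143, 137, 178 and 152 CPM. The highest untreated pup, pup 5, was close to the lowest treated pup, pup 8. The log2 fold change was 0.61 (SE 0.13, 1.53-fold, adjusted p = 0.0119, edgeR).

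Enpp6, a phosphodiesterase of choline lipids and a marker of oligodendrocytes that have just begun to differentiate (ENSMUSG00000038173, chromosome 8, 46986887 to 47096762), was at 26.0, 23.4, 17.4, 18.2 and 29.9 CPM in the 5 untreated pups. In treated pups it was at 41.9, 31.2, 30.6, 33.8 and 31.1 CPM. Untreated pup 5 again came within a narrow gap of the treated group, and treated pup 6 stood above the other treated pups. Its rise of 1.47-fold (log2 fold change 0.56, SE 0.14, adjusted p = 0.0224, edgeR) lost its call without untreated pup 3 (adjusted p = 0.0537) and without untreated pup 4 (adjusted p = 0.0602).

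Tns3 encodes tensin 3, which links integrins to the actin skeleton (ENSMUSG00000020422, chromosome 11, 8431652 to 8664535). It stood at 86.0, 71.4, 72.9, 59.7 and 85.1 CPM without and at 112, 92.5, 100, 102 and 98 CPM with treatment. Every treated pup was above untreated pup 1, the highest of its group. Among the members that rose, its fold of 1.35 (log2 fold change 0.43, SE 0.09, adjusted p = 0.00918, edgeR) was above that of Cspg4 alone.

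**Figure D2:**
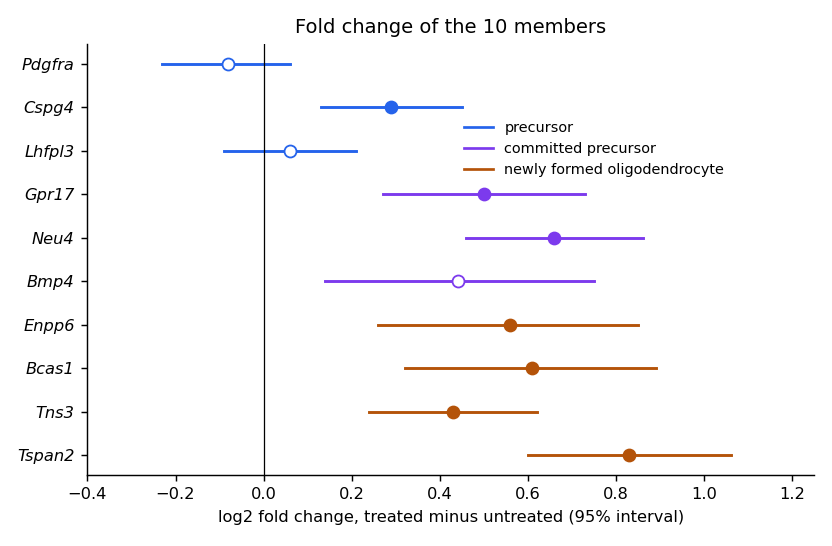
Log2 fold change of each member, treated minus untreated, with its 95% interval from edgeR, coloured by stage and filled where the adjusted p is under 0.05. The intervals of Pdgfra and Lhfpl3 include 0, and those of the other 8 members, Bmp4 among them, lie above 0.

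Levels of different genes are compared here per kilobase of merged exon (CPM per kb), which overstates the length of genes with many rarely used exons. In untreated brains the order was Gpr17 (44.1 ± 7.83), Bcas1 (27.5 ± 5.95), Tspan2 (19.5 ± 3.59), Lhfpl3 (14.7 ± 0.976), Pdgfra (8.29 ± 0.371), Tns3 (6.71 ± 0.973), Enpp6 (3.59 ± 0.822), Bmp4 (3.47 ± 0.673), Neu4 (2.76 ± 0.229) and Cspg4 (2.68 ± 0.301 CPM per kb, SD, n = 5). The library ranges of neighbours in this order overlapped from Gpr17 through to Lhfpl3 and from Enpp6 through to Cspg4, and were separate between Lhfpl3, Pdgfra, Tns3 and Enpp6. In treated brains Tns3 (9.03 ± 0.647) and Pdgfra (7.82 ± 0.807 CPM per kb, SD, n = 5) stood in the reverse order, with overlapping ranges. Treated levels of Gpr17, Bcas1 and Tspan2 were 62.4 ± 5.66, 42.0 ± 5.45 and 34.7 ± 2.90 CPM per kb (SD, n = 5), and their order was the same.

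The stages were then set against each other within each library. The summed CPM of the 3 precursor members was 172, 155, 164, 156 and 164 in untreated pups 1 to 5 and 171, 146, 172, 173 and 169 in treated pups 6 to 10. The groups overlapped, with means of 162 ± 6.90 and 166 ± 11.2 CPM (SD, n = 5 each). The summed CPM of the 7 differentiating members was 596, 568, 487, 413 and 659 in untreated and 930.4, 753, 763, 837 and 783 in treated pups. Here the groups did not overlap, and the mean went from 545 ± 96.2 to 813 ± 73.0 CPM (SD, n = 5 each), a ratio of means of 1.49. Divided by the precursor sum of the same library, the differentiating sum was 3.47, 3.67, 2.97, 2.65 and 4.02 in untreated and 5.44, 5.14, 4.44, 4.84 and 4.62 in treated pups. Every treated pup thus had a higher ratio than every untreated pup, with means of 3.35 ± 0.551 and 4.90 ± 0.399 (SD, n = 5 each). Gpr17 and other abundant members weigh most in these sums. Taken singly and divided by Pdgfra of the same library, 5 of the 7 differentiating members (Gpr17, Neu4, Bcas1, Tns3 and Tspan2) had groups that did not overlap, and Bmp4 and Enpp6 overlapped. The precursor member Cspg4 divided by Pdgfra did not overlap either, at 0.343 to 0.424 in untreated and 0.448 to 0.555 in treated pups. These ratios describe members chosen with earlier results known and carry no test, and the difference between the folds of the stages was not tested.

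**Figure D3:**
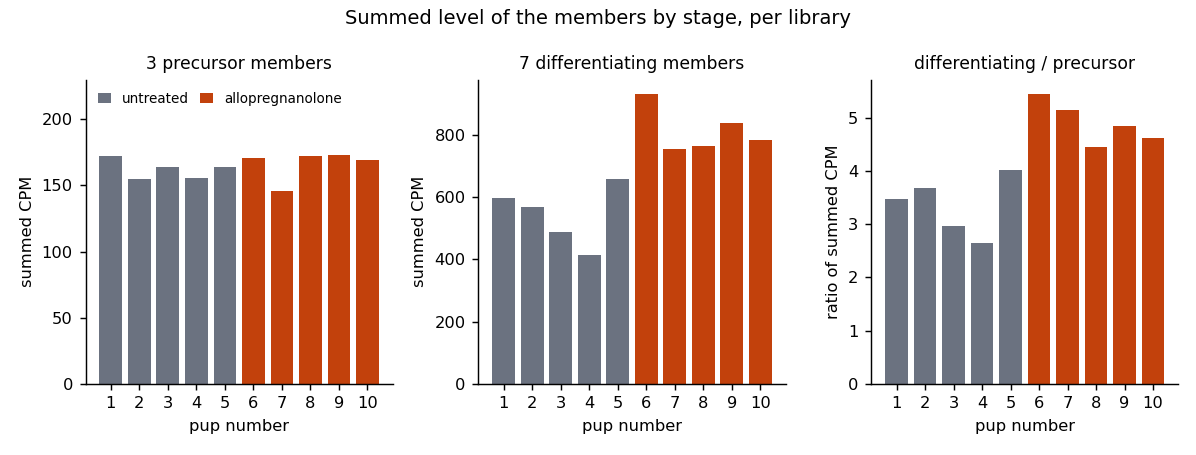
Summed CPM of the 3 precursor members and of the 7 differentiating members, and their ratio, in each pup, with untreated pups in grey and treated pups in orange. The precursor sum lies between 146 and 173 CPM in all 10 pups, while the ratio is 2.65 to 4.02 in untreated and 4.44 to 5.44 in treated pups.

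The spread between pups of 1 group differed by member. The coefficient of variation over the 5 untreated libraries was 4.47% for Pdgfra, 6.66% for Lhfpl3, 8.29% for Neu4 and 11.3% for Cspg4, and 14.5% to 22.9% for the other 6 differentiating members. In the treated group it was 10.3% for Pdgfra, 9.72% for Lhfpl3, 5.24% for Cspg4 and 7.16% to 14.6% for the differentiating members. Untreated pup 5 was the highest of its group for Gpr17, Bmp4, Enpp6, Bcas1 and Tspan2. Untreated pup 4 was the lowest of its group for 6 of the 7 differentiating members, all except Enpp6, and also for Pdgfra and Cspg4. In the treated group, pup 6 was the highest for 6 of the 7, all except Neu4. Without untreated pup 4 and treated pup 6, a choice made after these values were seen, 5 of 10 members rose, and Cspg4 (adjusted p = 0.0810, edgeR) and Enpp6 (adjusted p = 0.0947, edgeR) no longer passed.

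Other genes of the lineage were read from lists of known markers. Of 12 further precursor genes, 3 rose, 1 fell and 8 did not pass, with a median log2 fold change of 0.06. Without untreated pup 4, 1 rose and none fell, and without treated pup 6, 1 rose and 1 fell. With the midbrain covariate, or without the other name prefix, none rose or fell in edgeR, and DESeq2 on all libraries called 4 higher and 2 lower. The transcription factors Olig1 (1.40-fold, adjusted p = 0.00858, edgeR), Sox10 (1.38-fold, adjusted p = 0.0371, edgeR) and Olig2 (1.29-fold, adjusted p = 0.0411, edgeR), which act through the whole lineage, were the 3 that rose. Ptprz1, a receptor phosphatase of precursors that astrocytes and neural progenitors also express, fell to 0.849 of its untreated level (508 ± 53.6 CPM without and 432 ± 10.8 CPM with treatment, SD, n = 5 in both groups; edgeR, adjusted p = 0.0360). Cacng4, an AMPA receptor auxiliary subunit, averaged 199 ± 14.2 CPM in untreated and 192 ± 26.4 CPM in treated pups (SD over 5 pups; edgeR, adjusted p = 0.759). Nkx2-2, a transcription factor of early differentiation, had a log2 fold change of 0.44 (SE 0.19, adjusted p = 0.153, edgeR).

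Of 14 further genes of newly formed oligodendrocytes, 7 rose, none fell and 7 did not pass, with a median log2 fold change of 0.31. With the midbrain covariate 1 rose (median 0.21), and without the other name prefix 2 rose. Myrf, the transcription factor that switches on myelin genes, rose 1.82-fold, with group means of 49.5 ± 14.3 and 90.2 ± 15.8 CPM (SD over 5 pups; edgeR, adjusted p = 0.00803). The deacetylase Sirt2 rose 1.61-fold, the semaphorin Sema4d 1.51-fold and the small GTPase Rap2a 1.16-fold. The kinase Fyn, which neurons also express, had a log2 fold change of 0.13 (SE 0.06, adjusted p = 0.175, edgeR), and Tcf7l2, which thalamic neurons also express, had 0.18 (SE 0.27, adjusted p = 0.717, edgeR). At the mature end, 11 of 12 myelin genes rose and the median log2 fold change was 1.21, beside a highest member value of 0.83 (Tspan2). With the midbrain covariate 3 of the 12 rose, at a median of 0.93, and without the 3 libraries of the other name prefix 10 rose. Mbp, a main protein of compact myelin, rose 2.35-fold, Mobp 2.43-fold and Cnp 1.86-fold. The summed CPM of the 12 myelin genes divided by that of the 7 differentiating members was 4.24 to 6.22 in untreated and 7.90 to 9.76 in treated pups, without overlap.

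**Figure D4:**
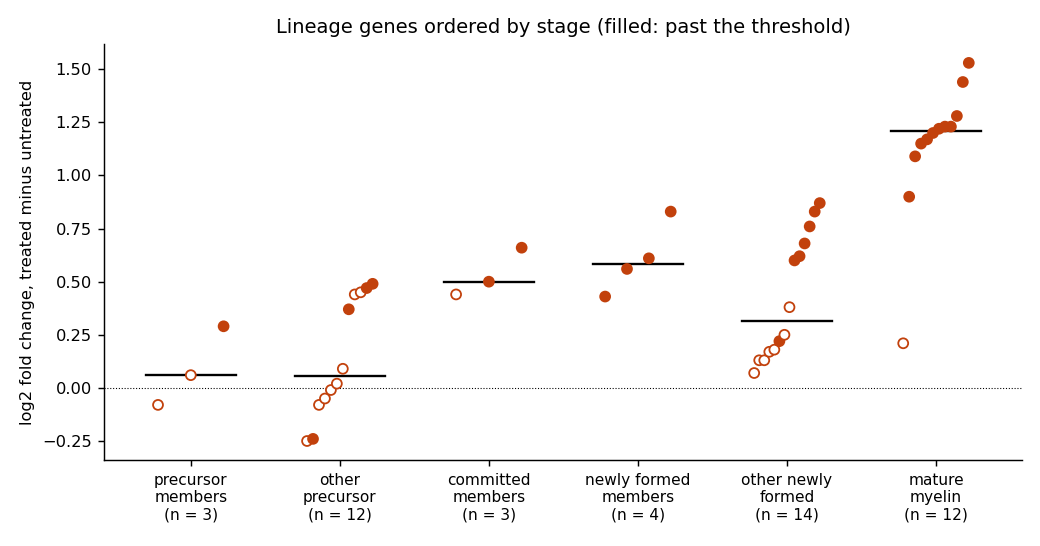
Log2 fold change, treated minus untreated, of the members and of 3 lists of other lineage genes, ordered from precursor to mature myelin, with filled points past an adjusted p of 0.05 and a bar at each median. The medians are 0.06 and 0.06 for the precursor groups, 0.50 and 0.58 for the committed and newly formed members, 0.31 for the other newly formed genes and 1.21 for mature myelin.

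The other genes of the growth factor and ligand systems around Pdgfra and Bmp4 were read beside 11.3% of all genes tested that passed in either direction. Of 5 other PDGF ligand and receptor genes none passed in edgeR or in DESeq2, and 1, the ligand gene Pdgfd, named after its value was seen, had an unadjusted p under 0.05 in edgeR. Pdgfa, which encodes a ligand of the Pdgfra receptor, averaged 47.9 ± 2.40 CPM in untreated and 49.5 ± 3.02 CPM in treated pups (SD over 5 pups, adjusted p = 0.602, edgeR). Of the Pdgfa exon bases 26.07% lie opposite another gene, and the strand setting of the counting is unknown here. The log2 fold changes were -0.09 (SE 0.06) for Pdgfb, -0.30 (SE 0.17) for Pdgfc and 0.09 (SE 0.08) for the mural cell receptor Pdgfrb. Of 18 other BMP pathway genes, 2 rose, none fell and 16 did not pass, with a median log2 fold change of 0.04. The 2, named after their values were seen, were Id1, a target of BMP signalling (1.39-fold, adjusted p = 0.0121, edgeR), and Chrd, the extracellular BMP antagonist chordin (1.36-fold, adjusted p = 0.0068, edgeR). With the midbrain covariate, or without the other name prefix, none of the 18 passed in edgeR. Noggin, the antagonist encoded by Nog, was at 12.2 ± 1.94 and 11.8 ± 2.02 CPM (SD, n = 5 each). Id2 and Id4, which hold back differentiation of precursors, had log2 fold changes of 0.06 (SE 0.09) and 0.03 (SE 0.12), and the receptor genes Bmpr1a and Bmpr2 -0.11 (SE 0.05) and 0.00 (SE 0.05).

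Because Pdgfra and Cspg4 are also expressed outside the lineage, markers of other cells were read beside them. Of 8 mural cell genes none passed in edgeR or DESeq2, none had an unadjusted p under 0.05, and their summed CPM was 278 to 321 in untreated and 275 to 339 in treated pups. Of 6 fibroblast genes 5 were tested and none passed in either tool, with 1 at an unadjusted p under 0.05, and the sum was 100.2 to 140 CPM untreated and 103 to 134 CPM in treated pups 7 to 10, but 465 CPM in treated pup 6. Without treated pup 6, 1 mural cell gene and 1 microglia and macrophage gene fell, and Cspg4 still passed at a log2 fold change of 0.27 (adjusted p = 0.0498, edgeR), and 7 of 10 members rose. With the mean of both lists as a covariate 7 of 10 members also rose. Of 8 microglia and macrophage genes none passed in edgeR, where 1 that was higher and 5 that were lower had an unadjusted p under 0.05, and 3 fell in DESeq2, at sums of 204 to 280.1 CPM untreated and 198 to 214 CPM treated. Of 8 proliferation genes 7 fell (3 without untreated pup 4, 5 without treated pup 6, and none in edgeR with the midbrain covariate or without the other name prefix), among them Mki67 with group means of 22.1 ± 9.40 and 12.4 ± 1.08 CPM (SD over 5 pups; edgeR, adjusted p = 0.0216), at sums of 78.8 to 127 CPM untreated and 58.3 to 66.2 CPM treated. Sums over astrocyte genes ranged from 2325 to 2650.3 CPM without and from 2839 to 3349.9 CPM with treatment. Slc1a2 weighed most in these sums, at 1634 ± 135 and 2158 ± 221 CPM (SD, n = 5 each). Of the 7 astrocyte genes 2 were higher, and 1 with the midbrain covariate or without the other name prefix. At an unadjusted p under 0.05 in edgeR, 4 were higher and 1 was lower. Sums over neuron genes ranged from 4479 to 4966 CPM without and from 4121 to 4638 CPM with treatment, with 3 of 6 lower. Another 2 neuron genes were higher at an unadjusted p under 0.05 in edgeR, and DESeq2 called 1 higher and 3 lower. Which cells the proliferation transcripts came from was not tested.

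Midbrain genes moved with the treatment groups as well. Of 10 such genes, 9 were tested and 8 rose (2 without untreated pup 4, 6 without treated pup 6, none without the other name prefix). Their levels were low. The highest, Th and Slc6a3, averaged 12.6 and 9.68 CPM over all libraries, and 3 of the 10 had 0 counts in at least 1 library. With 100 counts required in 5 libraries, 1 passed. The list summed to 7.5 to 21.9 CPM in untreated pups and to 114, 87.7, 15.1, 59.0 and 15.5 CPM in treated pups 6 to 10. With the mean of this list as a covariate, Tspan2 alone of the 10 members passed (log2 fold change 0.69, adjusted p = 0.0434, edgeR), and the log2 fold changes of the 7 differentiating members were 0.30 to 0.69. In the same fit 132 genes rose and 64 fell over the whole table, beside 1131 and 795 without the covariate. Th and Slc6a3 weigh most in the midbrain sums, while the covariate averaged the log2 values of all genes tested in the list. For 1 of these genes every treated pup lay above every untreated pup. Treated pups 8 and 10 had midbrain sums below untreated pup 2 (21.9 CPM) and above the other 4 untreated pups (7.5 to 12.7 CPM). Their differentiating sums were 763 and 783 CPM. Treated pups 6, 7 and 9, with the higher midbrain sums, had differentiating sums of 930.4, 753 and 837 CPM. The part of the midbrain transcripts in the members' values was not tested beyond these values. The sum over 6 red blood cell genes ranged from 598 to 1468 CPM without and from 975 to 1571 CPM with treatment, and with their mean as a covariate 7 of 10 members rose.

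Without the 3 untreated libraries of the other name prefix, 2 untreated pups remained against 5 treated ones. Tspan2 alone passed there (adjusted p = 0.0351, edgeR), and the log2 fold changes of the 7 differentiating members were 0.48 to 0.84. This fit called 76 genes higher and 23 lower over the whole table. As all treated libraries carry 1 prefix, the other prefix holds untreated pups only and allows no comparison of treated with untreated pups.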

How the data were processed

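RNA was extracted from whole brain with the RNeasy Mini Plus kit, and directional libraries were prepared with NEBNext Ultra II, per the labels' protocols. Partek and the mm10 genome are named, per the submitters' processing notes. For the aligner, counting program, annotation and strand setting, nothing is stated (not given in the sources used here). The deposited table holds the authors' estimated counts per Ensembl gene, not scaled to a common total, and they were rounded to whole numbers. Symbols were matched for 55230 of 55471 identifiers (GENCODE M21, GRCm38), and 241 stayed without a name.

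Genes with at least 10 counts in at least 5 libraries were kept (17101 genes). Both groups were compared with edgeR 4.0.16 (R 4.3.3): TMM scaling, the quasi-likelihood test, two-sided, Benjamini-Hochberg adjustment over all genes kept, and a threshold of 0.05. A standard error is the log2 fold change over the root of its F statistic, and intervals are at 95%. The fit was tested on simulated data, where it recovered 51% of genes changed 1.5-fold and 68% of genes changed 2-fold. Of the genes called there, 1.65% were unchanged. CPM are TMM-scaled. The 23 alternative fits of the gene test changed the scaling, count filter, tool (DESeq2 1.42.0, limma 3.58.1), covariates or libraries.

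The members, the 13 lists beside them and the tests were chosen with earlier results of these data known. All members are described. Of each other list, the 4 genes with the highest mean CPM could be named, plus Pdgfa, Pdgfc, Pdgfrb, Nog, Id2, Id4, Olig2, Sox10, Nkx2-2, Myrf, Tcf7l2, Mbp and Mki67, and 1 further gene that is not reported here. Pdgfd, Id1 and Chrd fall outside this rule. The labels give 1 mouse per library but no litter, so p-values measure the spread between these pups. The promoter sequences are RefSeq's, on GRCm38.p6, with windows used for 8 of 10 members.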

Additional observations from a re-analysis of the deposited data

Results flagged for a closer look

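In 4 of 26 groups of 5 libraries (the 10 members, both stage sums and their ratio, in each treatment group), 1 library stood far from the others by Dixon's test. Chance flags about 1 group in 20, and the members are not independent of each other. Treated pup 6 stood high for Gpr17, at 375 CPM against 298 to 319 CPM in the other treated pups, and for Enpp6, at 41.9 CPM against 30.6 to 33.8 CPM. Treated pup 9 stood high for Neu4, at 24.6 CPM against 18.5 to 19.4 CPM. Treated pup 7 stood low in the sum of the precursor members, at 146 CPM against 169 to 173 CPM. Without treated pup 6 or treated pup 9, Gpr17, Enpp6 and Neu4 still passed the edgeR test.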

How the results depend on the processing

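No paired analysis was possible because the replicate numbers of the groups are not shared. Over the whole table, 1131 genes rose and 795 fell. These counts were 132 and 64 with the midbrain covariate, 587 and 339 with the red blood cell covariate, 76 and 23 without the 3 libraries of the other name prefix, and 644 and 412 without untreated pup 4 and treated pup 6, an alternative chosen after seeing the data. With library totals alone 1451 genes fell, and 1155 genes, in place of 718, had all treated libraries below all untreated ones. Leaving out 1 library gave 647 to 1357 genes higher and 437 to 984 lower, with the lower counts without untreated pup 1 (712 and 513), untreated pup 3 (647 and 475) and untreated pup 4 (649 and 437). Members that rose numbered 7, and 1 with the midbrain covariate or without the other prefix. Leaving out 1 library gave 5 to 8, with 5 without untreated pup 3 or untreated pup 4. Pdgfra changed sign with the midbrain covariate (0.07), and Lhfpl3 with library totals alone (-0.0013) and without the other prefix (-0.02), and neither passed the test in any alternative. The log2 ratio of the precursor sums was 0.15 with Pdgfra left out, and 0.02 to 0.08 with 1 library left out. The log2 ratio of the differentiating sums was 0.49 to 0.66, and that of the stage ratio 0.47 to 0.62, with 1 library left out. The cause of these shifts was not tested. The members had 119 or more counts in every library, with the lowest count for Bmp4. With 5 pups a group the precision is limited, so a member that missed the threshold may still differ. The parts of depth and of the spread between pups in this were not tested.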
